A study of Mus musculus with 16 samples.

Results

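The comparison described here sets triacsin C against etomoxir in cultured mouse brown adipocytes in which lipolysis was stimulated with SR-3420. Its members are the samples whose labels name SR-3420 together with 1 of these inhibitors, which gives 6 of the 16 samples in the series. The study asked which transcriptional responses of brown adipocytes depend on lipolysis and on what becomes of the fatty acids it releases, and RNA-seq read counts per gene were analysed. All groups used here came from an immortalized brown preadipocyte line that was differentiated in culture and treated on day 7, so every sample derives from 1 cell line. The group TC+SR-3420 (3 samples) was first given triacsin C at 5 µM, 1 h before SR-3420 was added for 3 h. The group ETO+SR-3420 (3 samples) was treated in the same way with etomoxir at 50 µM. The groups TC (3 samples) and ETO (3 samples) received the same inhibitor doses without SR-3420, while the groups vehicle (2 samples) and SR-3420 (2 samples) received no inhibitor, the vehicle being DMSO. The dose of SR-3420 was 10 µM in the labels, and the study's text names a higher one for this experiment. The labels do not say whether replicates were separate cultures, although the study's text speaks of independent experiments, so p-values measure the spread between these samples.

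Lipolysis in adipocytes frees fatty acids from stored triglyceride, and SR-3420 is a ligand of ABHD5 that releases this co-activator to stimulate the lipase ATGL. Acyl-CoA synthetases join the freed fatty acids to coenzyme A, the step that commits them to esterification or oxidation and that triacsin C inhibits. Etomoxir inhibits carnitine palmitoyltransferase, the enzyme that hands activated long-chain fatty acids to the carnitine shuttle for oxidation in mitochondria, so these inhibitors stop fatty acid use at successive steps.

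Total counts were 16265789, 12043744 and 10659704 in TC+SR-3420 replicates 1, 2 and 3, and 25670624, 13173278 and 16512525 in the ETO+SR-3420 replicates. In a principal component analysis of the 6 samples, PC1 held 60.4% of the variance and did not part the inhibitors. Its scores for replicates 1, 2 and 3 were -30.73, -17.78 and 30.59 in TC+SR-3420 and -36.29, 10.05 and 44.15 in ETO+SR-3420. In both groups they rose with the replicate number. PC2 held 18.1%, with scores of 6.70, 15.1 and 21.0 for TC+SR-3420 and -21.8, 0.934 and -21.9 for ETO+SR-3420, so ETO+SR-3420 replicate 2 lay nearest to the other group. The labelled cell type was checked against 8 markers of brown adipocytes or of fat cells in general, all of which were tested and had counts. Fabp4, a fatty acid binding protein, was the most abundant of them per kilobase, and Ucp1, the uncoupling protein that defines thermogenic fat, was low with 39 to 57 raw counts in the 6 samples. Mean normalized counts over the 6 samples were 51672 for Fabp4, 14301 for Adipoq, 9487 for Plin1 and 1877 for Pparg. Those of Prdm16, Cidea, Elovl3 and Ucp1 were 238, 231, 148 and 42.0. These add little to the sums of all 8, which therefore do not test brown identity. Summed normalized counts of the 8 markers were 67955, 69709 and 74197 in TC+SR-3420 and 82833, 63566 and 109717 in ETO+SR-3420. Those of 12 preadipocyte or fibroblast markers, led per kilobase by Col1a1, were 97228, 82400.1 and 71317 and 98009, 75188 and 56004. ETO+SR-3420 replicate 3 therefore held the highest adipocyte sum and the lowest fibroblast sum. The filter on low counts was passed by 11 of the 12 fibroblast markers, Lum being the exception, and by 3 of 7 macrophage, 2 of 6 endothelial and 2 of 7 skeletal muscle markers. None of the markers that were tested was called between the inhibitors by edgeR, and none of all these markers was at 0 in all 6 samples. In bulk samples, fewer cells of a type and less RNA per cell cannot be told apart.

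With lipolysis stimulated, few genes passed the edgeR test between triacsin C and etomoxir, and how many did so depended on the test and on single samples. The heme oxygenase gene Hmox1 and the metallothionein gene Mt2 led the genes that were higher with triacsin C, by 4.41-fold and 4.04-fold. The nuclear receptor gene Ppara and the co-activator gene Ppargc1b led the lower ones, at 3.30-fold and 3.22-fold higher levels with etomoxir. Of 12786 genes tested, 15 (0.117%) were higher with TC+SR-3420 and 23 (0.180%) were lower at an edgeR adjusted p under 0.05, and of these 9 (0.0704%) and 11 (0.0860%) differed at least 2-fold. In all 38 called genes the 3 and 3 normalized counts did not overlap. The calls rest on the same 6 samples, so this is no separate evidence for them, and the share over all genes tested is not given here. At an unadjusted p under 0.05, 433 genes (3.39%) were higher and 490 (3.83%) lower, the background for the gene lists below. The median log2FC over all genes tested was -0.012, turning above 0 without ETO+SR-3420 replicate 1 or 3. DESeq2 called 107 genes higher and 102 lower, 38 of the 38 among them, and moved the share of higher genes from 39.5% to 51.2% of the calls. Without TC+SR-3420 replicate 1, 2 or 3 edgeR called 9, 3 and 4 genes higher and 4, 0 and 1 lower. Without ETO+SR-3420 replicate 1, 2 or 3 it called 4, 21 and 6 higher and 2, 62 and 8 lower. The genes at least 2-fold higher then numbered 5, 3 and 3 and 3, 10 and 4 in the same order of samples, and those at least 2-fold lower 4, 0 and 1 and 2, 30 and 7. A fit on these 6 samples alone called 2 genes higher, Hmox1 and Mt2, and 0 lower. With trends in GC content and length removed, an alternative chosen after seeing the data, edgeR called 114 higher and 123 lower. The replicate number as a block gave 117 higher and 148 lower, although the numbers were not taken as pairing.

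**Figure D1:**
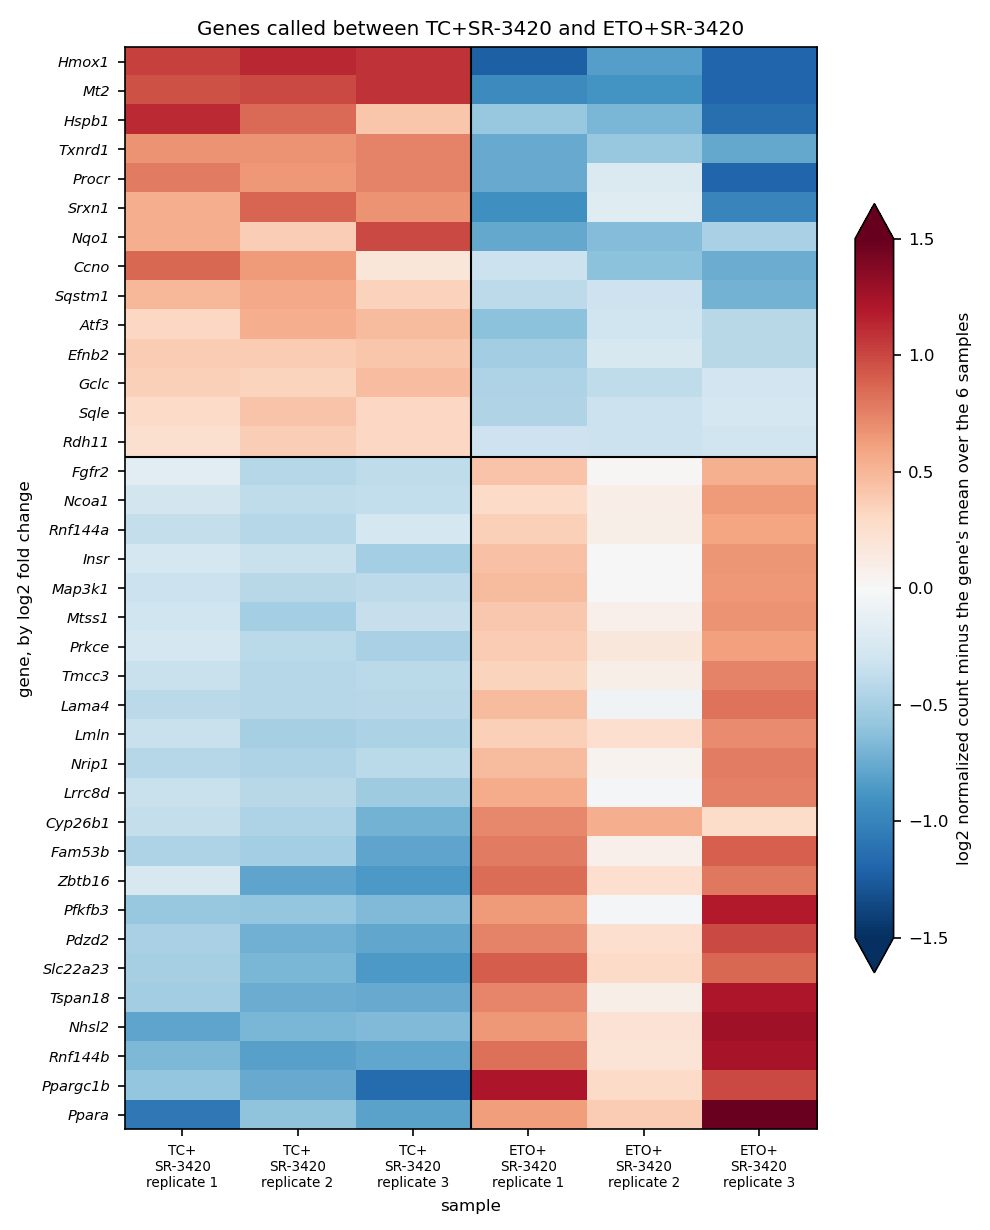
Log2 normalized count of 37 of the 38 called genes in each of the 6 samples, minus the gene's mean over the 6 samples; rows are genes in order of log2 fold change, columns are samples. The 14 upper genes are above their mean in the 3 TC+SR-3420 samples, and many of the 23 lower genes are nearest to their mean in ETO+SR-3420 replicate 2.

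**Figure D2:**
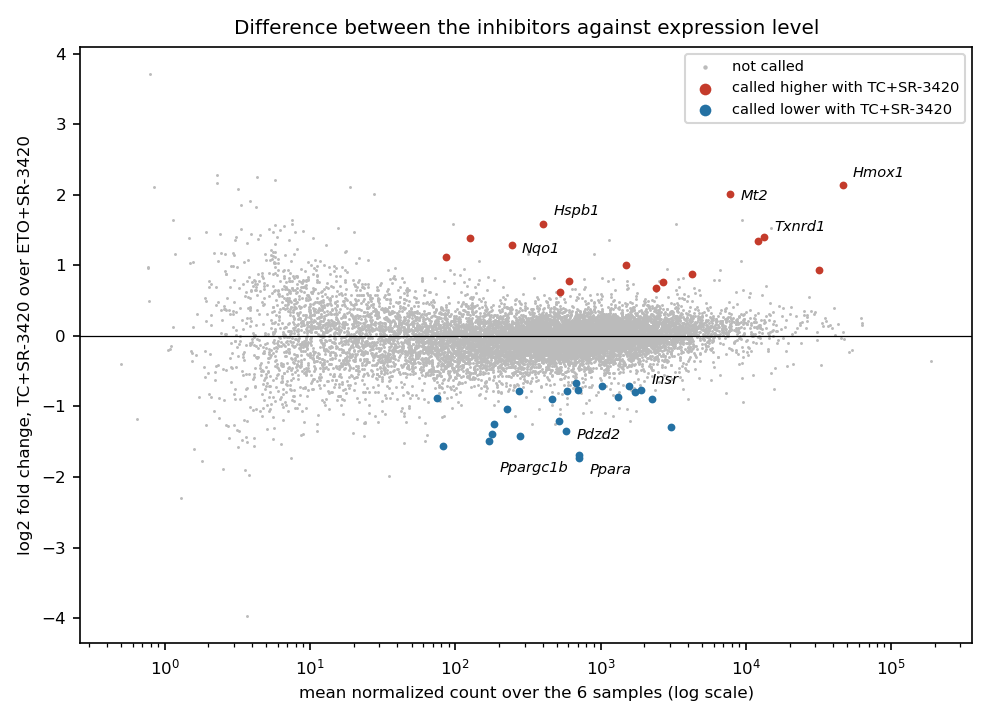
Log2 fold change of TC+SR-3420 over ETO+SR-3420 (vertical) against the mean normalized count over the 6 samples (horizontal, log scale) for the 12786 genes tested, each point a gene. The 15 genes called higher (red) and 23 called lower (blue) all have mean counts above 70, where few uncalled genes (grey) differ as much, while many uncalled genes of lower counts do.

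NRF2 is the transcription factor that raises antioxidant and detoxification enzymes when cells meet oxidants or electrophiles. Among its well-known targets 26 were tested, 6 were higher with triacsin C and 0 lower by edgeR, and the median log2FC was 0.31 beside -0.012 over all genes tested. At an unadjusted p under 0.05 the counts were 12 and 0, and DESeq2 called 8 and 0. Hmox1 (NM_010442, chromosome 8 from 77617517 to 77624492, plus strand in mm9), which encodes the inducible heme oxygenase, had 72818, 78101 and 75727 normalized counts in TC+SR-3420 replicates 1, 2 and 3 and 15379, 20190.0 and 15741 in the ETO+SR-3420 replicates. Every triacsin C sample was far above every etomoxir sample, of which ETO+SR-3420 replicate 2 was the highest (log2FC 2.14 ± 0.14 SE, edgeR adjusted p = 1.16e-05). Its mean was 3306 ± 168 (SD, n = 2) with vehicle and 13826 ± 1853 (SD, n = 2) with SR-3420 alone. Txnrd1 (NM_001042523, chromosome 10 from 82296696 to 82360469, plus strand), the cytosolic thioredoxin reductase, had 18913, 18913 and 19822 against 6984, 7936 and 6915 normalized counts. Here too the groups were apart with little spread (log2FC 1.40 ± 0.11 SE, edgeR adjusted p = 1.96e-05), although the counted region overlaps Eid3 and the strand setting of the counting was not stated, so reads of such overlapping genes are uncertain. Srxn1, the sulfiredoxin that repairs oxidized peroxiredoxins (NM_029688, chromosome 2 from 151931260 to 151937112, plus strand), had 15521, 19609 and 17037 against 5636, 9404 and 5372, with ETO+SR-3420 replicate 2 nearest to the triacsin C samples (log2FC 1.35 ± 0.21 SE, edgeR adjusted p = 0.0163).

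The quinone reductase gene Nqo1 (NM_008706, chromosome 8 from 109912125 to 109927105, minus strand) had 319, 284 and 438 normalized counts with TC+SR-3420 and 129, 139 and 156 with ETO+SR-3420. TC+SR-3420 replicate 3 was the highest sample, and the lowest triacsin C sample was still above the highest etomoxir sample (log2FC 1.29 ± 0.21 SE, edgeR adjusted p = 0.0226). Gclc, which encodes the catalytic subunit of the first enzyme of glutathione synthesis (NM_010295, chromosome 9 from 77602342 to 77642296, plus strand), had 3326, 3274 and 3575 against 1881, 1992 and 2129.6, a gap wider than the spread within either group (log2FC 0.76 ± 0.10 SE, edgeR adjusted p = 0.00691). Sqstm1, the autophagy receptor p62 (NM_011018, chromosome 11 from 50013654 to 50024322, minus strand), had 42809, 44962 and 38359 against 22976, 24313 and 18569, with the 3 and 3 apart (log2FC 0.93 ± 0.16 SE, edgeR adjusted p = 0.0284). Members that were not called included Osgin1 (log2FC 1.36), the cystine transporter gene Slc7a11 (1.15), Gclm (0.30) and the NRF2 gene itself, Nfe2l2 (0.27). Hmox1 and Txnrd1 passed whichever of the 6 samples was left out (edgeR adjusted p 1.35e-05 to 0.000180 and 9.24e-05 to 0.000337). The list held 4 called genes without TC+SR-3420 replicate 1, 2 without TC+SR-3420 replicate 2, TC+SR-3420 replicate 3 or ETO+SR-3420 replicate 1, and 3 without ETO+SR-3420 replicate 3. Nqo1 and Sqstm1 passed only when ETO+SR-3420 replicate 2 was left out (edgeR adjusted p 0.0684 to 0.114 and 0.0902 to 0.144 without any other sample). Srxn1 passed only without that sample or TC+SR-3420 replicate 1 (0.0819 to 0.0888 without the others), and Gclc was lost without TC+SR-3420 replicate 2, TC+SR-3420 replicate 3 or ETO+SR-3420 replicate 1 (0.0512 to 0.0636).

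Promoter sequences were read for the 15 higher genes, since several of them are known targets of factors with short binding motifs. The RefSeq promoters of GRCm38.p6, which run from 250 bases before to 50 bases after a gene's start, held an entry for 11 of them, and for 4, among them Hmox1, Gclc and Sqle, none. The core of the antioxidant response element, TGACNNNGC on either strand, was in the promoters of 5 (Efnb2, Mt2, Procr, Srxn1 and 1 of the 3 of Txnrd1), beside 12.4% of all 32851 promoters and 3781 of all 27025 gene symbols. The heat shock element core GAANNTTC, whose letters read the same on both strands and which shares no full match with the other motif, was in 1 of the 11, that of Hspb1, beside 7.86% of promoters and 9.04% of symbols. A match is a run of letters and not a measured binding site. The stretches below lie before the start of each gene, read 5′ to 3′ on the gene's strand with matches in capitals, on either strand of the motif.
Txnrd1, plus strand, chr10:82859084-82859152: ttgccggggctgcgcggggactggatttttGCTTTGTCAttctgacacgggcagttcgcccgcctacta
Mt2, plus strand, chr8:94172509-94172577: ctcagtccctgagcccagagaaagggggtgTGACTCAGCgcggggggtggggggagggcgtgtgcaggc
Procr, plus strand, chr2:155751033-155751101: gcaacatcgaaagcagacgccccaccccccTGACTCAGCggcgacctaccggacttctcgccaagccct
Efnb2, minus strand, chr8:8661243-8661492: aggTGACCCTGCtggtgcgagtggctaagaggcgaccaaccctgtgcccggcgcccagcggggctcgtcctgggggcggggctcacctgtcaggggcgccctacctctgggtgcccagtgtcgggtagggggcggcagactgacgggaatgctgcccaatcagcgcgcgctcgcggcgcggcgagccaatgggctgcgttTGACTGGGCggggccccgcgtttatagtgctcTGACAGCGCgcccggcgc
Hspb1, plus strand, chr5:135887772-135887859: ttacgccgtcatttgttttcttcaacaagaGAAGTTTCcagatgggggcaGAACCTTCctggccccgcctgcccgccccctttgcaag
Efnb2 held 3 matches of the antioxidant motif and Hspb1 held 2 of the heat shock motif, while the match of Srxn1 lies after its start and is not shown.

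Of the genes called higher outside the NRF2 list, Mt2, Hspb1, Atf3, Procr, Efnb2 and Ccno are described next. Mt2, a metallothionein that binds zinc and other metals (NM_008630, chromosome 8 from 96696518 to 96697467, plus strand), had 12027, 12333 and 13072 normalized counts with TC+SR-3420 and 3202, 3329 and 2716 with ETO+SR-3420, with the vehicle at 717 ± 50.4 (SD, n = 2). The groups lay about as far apart as for Hmox1 (log2FC 2.02 ± 0.14 SE, edgeR adjusted p = 1.31e-05), and Mt2 passed whichever of the 6 samples was left out (edgeR adjusted p 6.95e-05 to 0.000206). Hspb1, a small heat shock protein (NM_013560, chromosome 5 from 136363789 to 136365433, plus strand), had 739, 613 and 457 against 231, 213 and 155, and its replicates spread widely within both groups without meeting (log2FC 1.59 ± 0.29 SE, edgeR adjusted p = 0.0402). Atf3, a stress-induced transcription factor (NM_007498, chromosome 1 from 192994176 to 193007212, minus strand), had 5002, 5860.5 and 5581 against 2622, 3286 and 3031, with all 3 triacsin C samples above all 3 etomoxir samples (log2FC 0.88 ± 0.13 SE, edgeR adjusted p = 0.0163). Procr, the endothelial protein C receptor, Efnb2, a ligand of Eph receptors, and Ccno, cyclin O, had log2FC of 1.39, 0.78 and 1.12 (edgeR adjusted p 0.0163, 0.0111 and 0.0425). Hspb1 and Ccno lost the call whichever sample was left out (edgeR adjusted p 0.0640 to 0.246 and 0.0638 to 0.253), and Ccno also with no filter on low counts. Procr passed only when ETO+SR-3420 replicate 2 was left out (0.0680 to 0.0895 without any other), and Atf3 and Efnb2 only without that sample or TC+SR-3420 replicate 1 (0.0680 to 0.0859 and 0.0570 to 0.0859 without the others). Per the study's methods, 1 read was kept per position and length in the counting. Mt2 had up to 13072 normalized counts on a counted length of 556 bases, and whether this step limited its counts was not tested.

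Heat shock proteins and their co-chaperones refold damaged cytosolic proteins. Of 33 tested, 1 (Hspb1) was higher with triacsin C and 0 lower by edgeR, 11 and 0 had an unadjusted p under 0.05, and DESeq2 called 8 and 0. The median log2FC of the list was 0.29, with 28 of 33 members above 0, beside 6158 of 12786 for all genes tested, and it was 0.16 without TC+SR-3420 replicate 3. Hspa1a, an inducible member of the HSP70 family, had 1231, 1139.9 and 856 normalized counts with TC+SR-3420 and 437, 316 and 192 with ETO+SR-3420. The 3 and 3 samples did not overlap, yet the spread was wide and the test was not passed (log2FC 1.76 ± 0.41 SE, edgeR adjusted p = 0.117). Its near-identical copy Hspa1b shares reads with it and had a log2FC of 1.59 (edgeR adjusted p = 0.184). The co-chaperone genes Dnajb1 and Hsph1 had log2FC of 0.69 and 0.65 and were not called by edgeR, while DESeq2 and edgeR with trends in GC content and length removed called all of Hspa1a, Hspa1b, Dnajb1 and Hsph1.

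ATF4 drives amino acid synthesis and transport genes in the integrated stress response, and ATF6 and XBP1 drive chaperones of the endoplasmic reticulum. Of 43 ATF4 targets tested, Atf3 was the 1 called higher and 0 were called lower by edgeR, 21 and 0 had an unadjusted p under 0.05, and DESeq2 called 7 and 0. The list's median log2FC was 0.34, with 41 of 43 members above 0. Atf4 itself had 16859, 16839.5 and 17104 normalized counts with TC+SR-3420 and 11475, 13026 and 12244 with ETO+SR-3420, so the groups did not overlap, but the edgeR test was not passed (log2FC 0.46 ± 0.12 SE, edgeR adjusted p = 0.160), while DESeq2 called it. Trib3 and Asns, a pseudokinase and the asparagine synthetase, had log2FC of 0.45 and 0.25, and Ddit3, whose counted region overlaps Mars, had 0.45, none of them called. Among 24 unfolded protein response markers that the study lists for another experiment, the same Atf3 was called higher and 0 were called lower by edgeR (12 and 0 at an unadjusted p under 0.05, 8 and 0 by DESeq2), with a median of 0.35. Atf3 lost the call and both counts were 0 without TC+SR-3420 replicate 2, TC+SR-3420 replicate 3, ETO+SR-3420 replicate 1 or ETO+SR-3420 replicate 3 (edgeR adjusted p 0.0680 to 0.0859). The 39 chaperones and folding enzymes of the endoplasmic reticulum had a median of 0.0067, which turned below 0 with no filter on low counts and without TC+SR-3420 replicate 3 or ETO+SR-3420 replicate 1, and ran from -0.080 without TC+SR-3420 replicate 3 to 0.11 without ETO+SR-3420 replicate 3. EdgeR called 0 of them (2 higher and 0 lower at an unadjusted p under 0.05, 1 and 0 by DESeq2). Hspa5, the BiP chaperone, had a log2FC of 0.34 (edgeR adjusted p = 0.603).

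SREBP2 raises the enzymes of cholesterol synthesis when sterols in the endoplasmic reticulum are low. Of 25 of its targets tested, 2 were higher with triacsin C and 0 lower by edgeR, and 24 of 25 had a log2FC above 0, with a median of 0.40. At an unadjusted p under 0.05 there were 13 higher and 0 lower, and DESeq2 called 6 and 0. Sqle, the squalene epoxidase (NM_009270, chromosome 15 from 59146647 to 59162748, plus strand), had 2847, 3119 and 2894 normalized counts with TC+SR-3420 and 1701, 1868 and 1943 with ETO+SR-3420, beside 3717 ± 25.7 (SD, n = 2) with vehicle. All triacsin C samples were above all etomoxir samples, and all 6 were below the vehicle mean (log2FC 0.68 ± 0.10 SE, edgeR adjusted p = 0.0104). Sqle lost the call without TC+SR-3420 replicate 2, TC+SR-3420 replicate 3 or ETO+SR-3420 replicate 1 (edgeR adjusted p 0.0638 to 0.0859), and the list then held 0, 1 and 1 called genes.

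The genes Ppara and Ppargc1b, which were called lower with triacsin C, stood at the other end of the comparison. Ppara encodes a nuclear receptor that is activated by fatty acids and drives genes of their oxidation (NM_001113418, chromosome 15 from 85565994 to 85637281, plus strand), and its normalized counts were 278, 384 and 334 with TC+SR-3420 and 900.2, 758 and 1631 with ETO+SR-3420. ETO+SR-3420 replicate 3 was the highest sample, and each triacsin C sample was below each etomoxir sample (log2FC -1.72 ± 0.23 SE, edgeR adjusted p = 0.00691). The vehicle and SR-3420 groups had 1204 ± 92.0 and 1616 ± 104 (SD, n = 2 each). Ppargc1b, which encodes the co-activator PGC-1β of mitochondrial gene expression, had 392, 347 and 264 against 1353, 713 and 1166, with ETO+SR-3420 replicate 2 the lowest etomoxir sample (log2FC -1.69 ± 0.27 SE, edgeR adjusted p = 0.0163). Its relative Ppargc1a had 336, 322 and 349 against 601, 509 and 1065, which did not overlap, and the test was not passed (log2FC -1.11 ± 0.24 SE, edgeR adjusted p = 0.0939). It was passed in some alternatives, among them the fit without ETO+SR-3420 replicate 2 (edgeR adjusted p = 0.0262) and DESeq2. Ppara lost the call without TC+SR-3420 replicate 2 or 3 (edgeR adjusted p 0.0576 to 0.0627), and Ppargc1b passed only when ETO+SR-3420 replicate 2 was left out (0.0648 to 0.114 without any other).

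Over 20 tested genes of brown fat thermogenic identity, 2 (Ppara and Ppargc1b) were lower with triacsin C and 0 higher by edgeR, 8 and 1 had an unadjusted p under 0.05, and DESeq2 called 3 and 0. The median log2FC was -0.43, and 3 of 20 members were above 0. Ucp1, with 35.0, 48.1 and 49.9 against 32.0, 42.8 and 44.2 normalized counts, overlapped between the groups (log2FC 0.16, edgeR adjusted p = 0.998), as did Elovl3 (log2FC -0.45), a fatty acid elongase whose counted region overlaps Pitx3. Among 28 adipocyte identity genes the insulin receptor gene Insr was the 1 called lower, and 0 were called higher by edgeR (8 lower and 0 higher at an unadjusted p under 0.05, 5 and 0 by DESeq2), with a median of -0.39. Adipoq and Fabp4, an adipokine and a fatty acid carrier, had log2FC of -0.21 and -0.23, and Pparg, the master regulator of fat cell differentiation, had -0.36, none of them called. The thermogenic count was 1 without TC+SR-3420 replicate 1, ETO+SR-3420 replicate 1 or ETO+SR-3420 replicate 3, 0 without TC+SR-3420 replicate 2 or 3 and 3 without ETO+SR-3420 replicate 2, and the adipocyte count was 4 without ETO+SR-3420 replicate 2 and 0 without any other sample. Without ETO+SR-3420 replicate 3 the medians were -0.18 and -0.29. The summed adipocyte markers given above were highest in that same sample (109717 normalized counts, beside 63566 in ETO+SR-3420 replicate 2), and their part in these differences was not tested.

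Further genes that were lower with triacsin C act in signalling, glucose use and retinoid breakdown. Pfkfb3, which makes the activator of glycolytic phosphofructokinase (NM_001177758, chromosome 2 from 11393058 to 11475556, minus strand), had 1819.7, 1813 and 1713 normalized counts with TC+SR-3420 and 4217, 2668 and 6169 with ETO+SR-3420. The triacsin C samples lay close together, whereas the etomoxir samples spread widely above them (log2FC -1.29 ± 0.21 SE, edgeR adjusted p = 0.0194). Insr (NM_010568, chromosome 8 from 3150922 to 3279617, minus strand) had 1506, 1433 and 1272 against 2459, 1819 and 2876, with ETO+SR-3420 replicate 2 nearest to the triacsin C samples (log2FC -0.77 ± 0.15 SE, edgeR adjusted p = 0.0493). Insr passed only when ETO+SR-3420 replicate 2 was left out (edgeR adjusted p 0.156 to 0.271 without any other). It also lost the call with DESeq2's size factors, with no filter on low counts and with trends in GC content and length removed. Pdzd2, a protein with PDZ domains (NM_001081064, chromosome 15 from 12286809 to 12522311, minus strand), had 368, 313 and 302 against 863, 616 and 1024, with the triacsin C samples close together and ETO+SR-3420 replicate 2 the lowest etomoxir sample (log2FC -1.35 ± 0.16 SE, edgeR adjusted p = 0.00317). Among the fits with 1 sample left out, Pdzd2 lost the call only without TC+SR-3420 replicate 2 (edgeR adjusted p 0.0631). In these fits Pfkfb3 passed only without ETO+SR-3420 replicate 2 or 3 (0.0806 to 0.149 without the others). Both genes also lost the call in the fit on the compared groups only. Pfkfb3 was the 1 called lower of 42 glucose uptake, glycolysis and hypoxia genes, and Insr the 1 of 26 insulin and FOXO genes. EdgeR called 0 higher in either list. At an unadjusted p under 0.05, 5 and 5 were lower and 1 and 3 higher, and DESeq2 called 2 and 2 lower and 0 and 2 higher. In the glucose list 25 of 42 members had a log2FC above 0, with a median of 0.090 (from 0.028 without TC+SR-3420 replicate 2 to 0.083 without ETO+SR-3420 replicate 3), and the insulin median was -0.15 (from -0.23 without ETO+SR-3420 replicate 2 to -0.039 without ETO+SR-3420 replicate 3). The counts became 2 and 2 without ETO+SR-3420 replicate 2, 0 and 0 without TC+SR-3420 replicate 1, 2 or 3 or ETO+SR-3420 replicate 1, and the insulin count was 0 without ETO+SR-3420 replicate 3 too.

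Retinoic acid is broken down by CYP26 enzymes and made from retinol by way of retinal. Cyp26b1 (NM_001177713, chromosome 6 from 84521408 to 84543902, minus strand) had 164, 153 and 129 normalized counts with TC+SR-3420 and 348, 308 and 255 with ETO+SR-3420, so each etomoxir sample was above each triacsin C sample (log2FC -1.03 ± 0.18 SE, edgeR adjusted p = 0.0307). Rdh11, a reductase of retinal (NM_021557, chromosome 12 from 80276538 to 80292806, minus strand), had 607, 664 and 636 against 414, 411 and 416, with the 3 samples of each group close together (log2FC 0.62 ± 0.11 SE, edgeR adjusted p = 0.0276). These were the 1 lower and the 1 higher of 23 retinoid genes tested, whose median log2FC of 0.063 turned below 0 with trends in GC content and length removed and ran from 0.042 without TC+SR-3420 replicate 1 to 0.15 without ETO+SR-3420 replicate 2. Rdh11 passed only when ETO+SR-3420 replicate 2 was left out (edgeR adjusted p 0.0822 to 0.238 without any other) and was lost with no filter on low counts, and Cyp26b1 passed only without ETO+SR-3420 replicate 2 or 3 (0.108 to 0.181 without the others).

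Of the other lower genes, Rnf144b (log2FC -1.56, a ubiquitin ligase), Nhsl2 (-1.49), Tspan18 (-1.42, a tetraspanin), Slc22a23 (-1.39, of a transporter family), Zbtb16 (-1.25, the transcription factor PLZF), Fam53b (-1.21) and Lrrc8d (-0.89, a subunit of volume-regulated anion channels) had edgeR adjusted p between 0.00794 and 0.0460. Nhsl2 overlaps Rgag4 in the counting. Chosen after their values were seen, the remaining 10 were Nrip1, Lmln, Lama4, Tmcc3, Prkce, Mtss1, Map3k1, Rnf144a, Ncoa1 and Fgfr2, with log2FC from -0.89 to -0.67 and edgeR adjusted p between 0.0227 and 0.0493. Among them are the nuclear receptor corepressor RIP140 (Nrip1), the steroid receptor co-activator SRC1 (Ncoa1), protein kinase C epsilon (Prkce), a laminin chain (Lama4) and a fibroblast growth factor receptor (Fgfr2). Nrip1 had 1597, 1561 and 1627 normalized counts with TC+SR-3420 and 2983, 2225 and 3655 with ETO+SR-3420, and Ncoa1 had 814, 755 and 762 against 1206, 1058 and 1535. In both genes ETO+SR-3420 replicate 2 was the lowest etomoxir sample and still above the triacsin C samples. These 10, Fam53b and Lrrc8d passed only when ETO+SR-3420 replicate 2 was left out (edgeR adjusted p 0.0822 to 0.317 without any other). Fgfr2, Lama4 and Ncoa1 also lost the call with DESeq2's size factors and with no filter on low counts, Lrrc8d with the former, and Lmln, Mtss1, Rnf144a and Tmcc3 with the latter. Rnf144b, Nhsl2 and Tspan18 passed only without ETO+SR-3420 replicate 2 or ETO+SR-3420 replicate 3 (0.0542 to 0.138 without the others). Zbtb16 passed only without ETO+SR-3420 replicate 2 or TC+SR-3420 replicate 1 (0.0812 to 0.152), and Slc22a23 was lost without TC+SR-3420 replicate 2, TC+SR-3420 replicate 3 or ETO+SR-3420 replicate 1 (0.0512 to 0.0664).

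The lower genes were long. Their median counted length was 5172 bases, beside 1976 for the higher genes and 2786 for all genes tested. Their median span in the genome was 115247 bases, beside 13037 for the higher genes and 21740.5 for all genes tested. Without SR-3420, the genes lower with TC than with ETO were long too, with medians of 4902 counted bases and a span of 115247. The genes higher there had 2073 and 8492, so these lengths were not particular to the comparison with SR-3420. With the genes tested divided by counted length into 5 equal groups, 17 of the 23 were in the longest. From the shortest group to the longest the median log2FC ran 0.070, 0.023, -0.013, -0.043 and -0.099, so the whole table had a small trend in the same direction. With trends in GC content and length removed, 36 of the 38 genes were still called, Insr and Nrip1 being the exceptions. That fit called 237 genes in all, so keeping most of the 38 cannot decide the part of length. The parts of transcript length and of span in the genome in these calls were not tested.

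Triacsin C blocks acyl-CoA synthetases and etomoxir the carnitine shuttle, and the genes of both steps were tested. Of 8 acyl-CoA synthetase genes tested, edgeR called 0 (0 higher and 1 lower at an unadjusted p under 0.05, 0 and 1 by DESeq2). Acsl1, the main isoform of fat cells (NM_007981, chromosome 8 from 47556396 to 47621404, plus strand), had 6141, 6318 and 7334 normalized counts with TC+SR-3420 and 11277, 8894 and 17671 with ETO+SR-3420. All etomoxir samples were above all triacsin C samples, with ETO+SR-3420 replicate 3 far above the rest, and the test was not passed (log2FC -0.93 ± 0.21 SE, edgeR adjusted p = 0.0998). It was passed in some alternatives, among them the fit without ETO+SR-3420 replicate 2 (edgeR adjusted p = 0.0202), DESeq2 and the removal of trends in GC content and length. Acsl3, Acsl4 and Acsl5 had log2FC of 0.50, 0.10 and -0.11 with overlapping samples, and the median of the list, 0.010, turned below 0 with no filter on low counts and ran from -0.020 without ETO+SR-3420 replicate 3 to 0.16 without ETO+SR-3420 replicate 1. In the carnitine shuttle and its malonyl-CoA control edgeR called 0 of 10 genes (0 higher and 2 lower at an unadjusted p under 0.05, 0 and 0 by DESeq2), with a median of -0.21 (from -0.29 without ETO+SR-3420 replicate 2 to -0.12 without ETO+SR-3420 replicate 1). Cpt1a, the liver-type transferase of the outer membrane, had 2052, 1676 and 1535 against 2317, 1789 and 1463, which overlapped (log2FC -0.084, edgeR adjusted p = 0.998). Cpt2, its partner of the inner membrane, had -0.35 and was not called.

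Downstream of these steps, edgeR called 0 of 19 genes of mitochondrial beta oxidation (median log2FC -0.22), 0 of 22 of peroxisomal oxidation (-0.22), 0 of 17 of triglyceride synthesis (-0.22), 0 of 21 lipid droplet genes (-0.19) and 0 of 39 well-known PPAR targets (-0.22). At an unadjusted p under 0.05 the numbers lower were 1, 4, 3, 2 and 6 in that order, with 4 higher among the PPAR targets and 0 higher in the others. DESeq2 called 0, 0, 0, 1 and 2 lower and 1 PPAR target higher. Only 2 of 19, 3 of 22 and 9 of 39 members had a log2FC above 0, in the oxidation lists and the PPAR list. The medians moved with single samples: that of mitochondrial oxidation ran from -0.32 without ETO+SR-3420 replicate 2 to -0.062 without ETO+SR-3420 replicate 3, of peroxisomal oxidation from -0.29 without ETO+SR-3420 replicate 2 to -0.13 without ETO+SR-3420 replicate 3, of triglyceride synthesis from -0.36 without ETO+SR-3420 replicate 2 to -0.11 without ETO+SR-3420 replicate 1, of lipid droplet genes from -0.38 without ETO+SR-3420 replicate 2 to -0.068 without ETO+SR-3420 replicate 1 and of PPAR targets from -0.31 without ETO+SR-3420 replicate 2 to -0.087 without ETO+SR-3420 replicate 3. Pdk4, the kinase that turns off pyruvate dehydrogenase, had 7014, 6742 and 7779.5 normalized counts with TC+SR-3420 and 6008, 5274 and 8078 with ETO+SR-3420. These samples overlapped, with ETO+SR-3420 replicate 3 the highest of the 6 (log2FC 0.15 ± 0.16 SE, edgeR adjusted p = 0.998). Angptl4, the lipoprotein lipase inhibitor, had 15312, 15411 and 15202 against 16435, 14494 and 15212, within a narrow range in all 6 samples (log2FC -0.0079 with a 95% interval from -0.24 to 0.23, turning above 0 without TC+SR-3420 replicate 1 or ETO+SR-3420 replicate 1). Plin2, which coats lipid droplets, had a log2FC of 0.41 and overlapping samples (edgeR adjusted p = 0.746). Ffar4, a receptor for long-chain fatty acids, had 219, 189 and 186 against 525, 222 and 669.8, with ETO+SR-3420 replicate 2 just above the triacsin C samples, and the test was not passed (log2FC -1.25 ± 0.31 SE, edgeR adjusted p = 0.158). Alternatives in which it passed include the fit without that replicate (edgeR adjusted p = 0.00464), DESeq2 and the removal of trends in GC content and length.

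**Figure D3:**
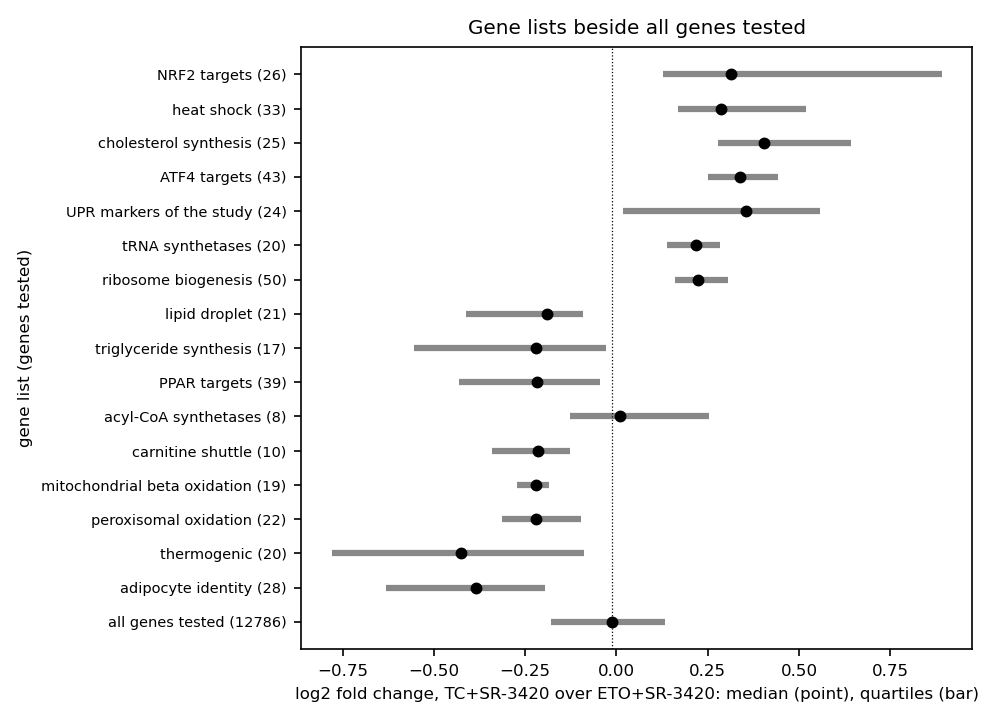
Median (point) and quartiles (bar) of the log2 fold change of TC+SR-3420 over ETO+SR-3420 in each gene list, with the number of genes tested in parentheses; the dotted line is the median of all 12786 genes tested. The NRF2, cholesterol, ATF4 and heat shock lists have medians from 0.29 to 0.40, the thermogenic and adipocyte identity lists -0.43 and -0.39, and the acyl-CoA synthetase median of 0.010 turned below 0 with no filter on low counts and without ETO+SR-3420 replicate 3.

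Genes that SR-3420 raised without any inhibitor give a list of lipolysis-activated genes. SR-3420 against vehicle, which shares no sample with the comparison of the inhibitors, called 299 of 12786 genes (2.34%) at least 2-fold higher by edgeR. Of these 299, 5 (1.67%) were higher with TC+SR-3420 than with ETO+SR-3420 (Hmox1, Mt2, Hspb1, Atf3 and Efnb2) and 1 (0.334%), Cyp26b1, was lower. Over all genes tested, 0.117% were higher and 0.180% lower. A log2FC above 0 was seen in 248 of them (82.9%), beside 48.2% of all genes tested, and their median was 0.27 beside -0.012. DESeq2 called 36 higher and 5 lower, and removing trends in GC content and length gave 40 and 3. The higher count was 2 without TC+SR-3420 replicate 2, TC+SR-3420 replicate 3, ETO+SR-3420 replicate 1 or ETO+SR-3420 replicate 3 and 10 without ETO+SR-3420 replicate 2. The lower count was 4 without ETO+SR-3420 replicate 2 and 0 without TC+SR-3420 replicate 1, 2 or 3, ETO+SR-3420 replicate 1, vehicle replicate 2 or vehicle replicate 3.

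The same inhibitors were also compared without SR-3420, in 3 TC and 3 ETO samples that the comparison above does not use. There, 1033 genes (8.08%) were higher and 1125 (8.80%) lower with triacsin C by edgeR, and the median absolute log2FC over all genes tested was 0.337, beside 0.155 with SR-3420. Of the 38 genes called with SR-3420, 37 (97.4%) were called in the same direction without it, which is 1.71% of the 2158 called there. The exception was Cyp26b1 (log2FC -0.51, edgeR adjusted p = 0.0810), whose difference between these log2FC was not called (-0.53, edgeR adjusted p = 0.445). The count of 37 was 12, 3 and 5 without TC+SR-3420 replicate 1, 2 or 3, 6, 66 and 13 without ETO+SR-3420 replicate 1, 2 or 3, 21, 22 and 19 without TC replicate 1, 2 or 3 and 24 and 20 without ETO replicate 1 or 2, and DESeq2 gave 171. Hmox1 and Txnrd1 had log2FC of 1.93 and 1.11 without SR-3420 and 2.14 and 1.40 with it, and Ppara had -0.70 and -1.72. None of these 3 had a called difference between the 2 conditions (edgeR adjusted p 0.789, 0.471 and 0.135).

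The change of the inhibitor difference with SR-3420 was tested as an interaction, the log2FC with SR-3420 minus the log2FC without it. It was above 0 in 194 genes (1.52%) and below 0 in 99 (0.774%) by edgeR, 293 in all, and in 9 of the 38 called genes. Mt2 was higher with triacsin C in both conditions, with a log2FC of 3.54 without and 2.02 with SR-3420 (interaction -1.52, edgeR adjusted p = 0.00210). Prkce was lower in both, with -2.58 without and -0.79 with it (interaction 1.80, edgeR adjusted p = 0.000582). In each of them the difference was smaller with SR-3420 present. Ffar4 changed sign, from 1.36 without (edgeR adjusted p = 0.00772) to -1.25 with SR-3420, the latter not called (interaction -2.62, edgeR adjusted p = 0.00790). Its normalized counts were 988 ± 191 in TC and 390.1 ± 60.8 in ETO (SD, n = 3 each), against 198 ± 18.3 in TC+SR-3420 and 472 ± 229 in ETO+SR-3420 (SD, n = 3 each). Angptl4 was higher with triacsin C by 0.69 without SR-3420 and differed by -0.0079 with it (interaction -0.70, edgeR adjusted p = 0.0322). The total of 293 became 162 and 192 without TC+SR-3420 replicate 1 or 3, 191 without ETO+SR-3420 replicate 1, 145 and 146 without TC replicate 2 or 3 and 156 without ETO replicate 2, and was 656 by DESeq2. The interactions of Mt2, Prkce and Ffar4 were called without any 1 of the 12 inhibitor samples, and that of Angptl4 without only 2 of them (edgeR adjusted p 0.0472 to 0.0922 over the 12).

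**Figure D4:**
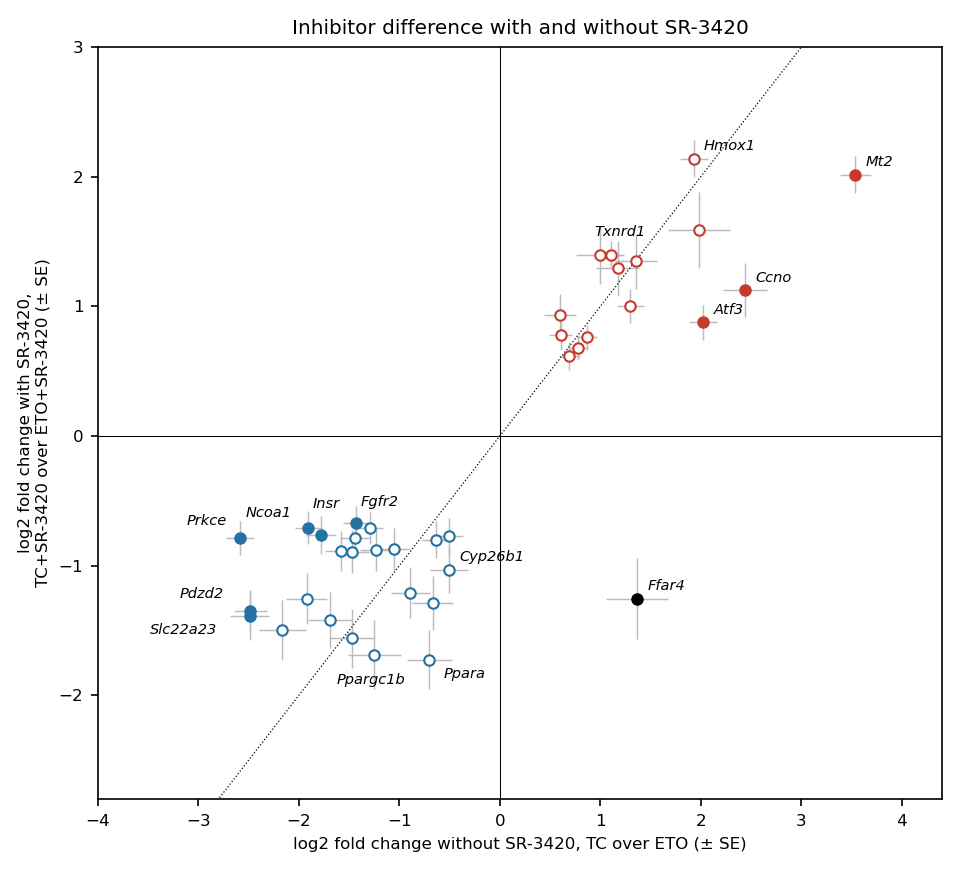
Log2 fold change of triacsin C over etomoxir with SR-3420 (vertical) against that without SR-3420 (horizontal), with standard errors, for the 38 called genes (red higher, blue lower) and Ffar4 (black); filled points have a called interaction, and equal values lie on the dotted line. All 38 genes have the same sign on both axes, and Ffar4 lies at 1.36 without and -1.25 with SR-3420.

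**Figure D5:**
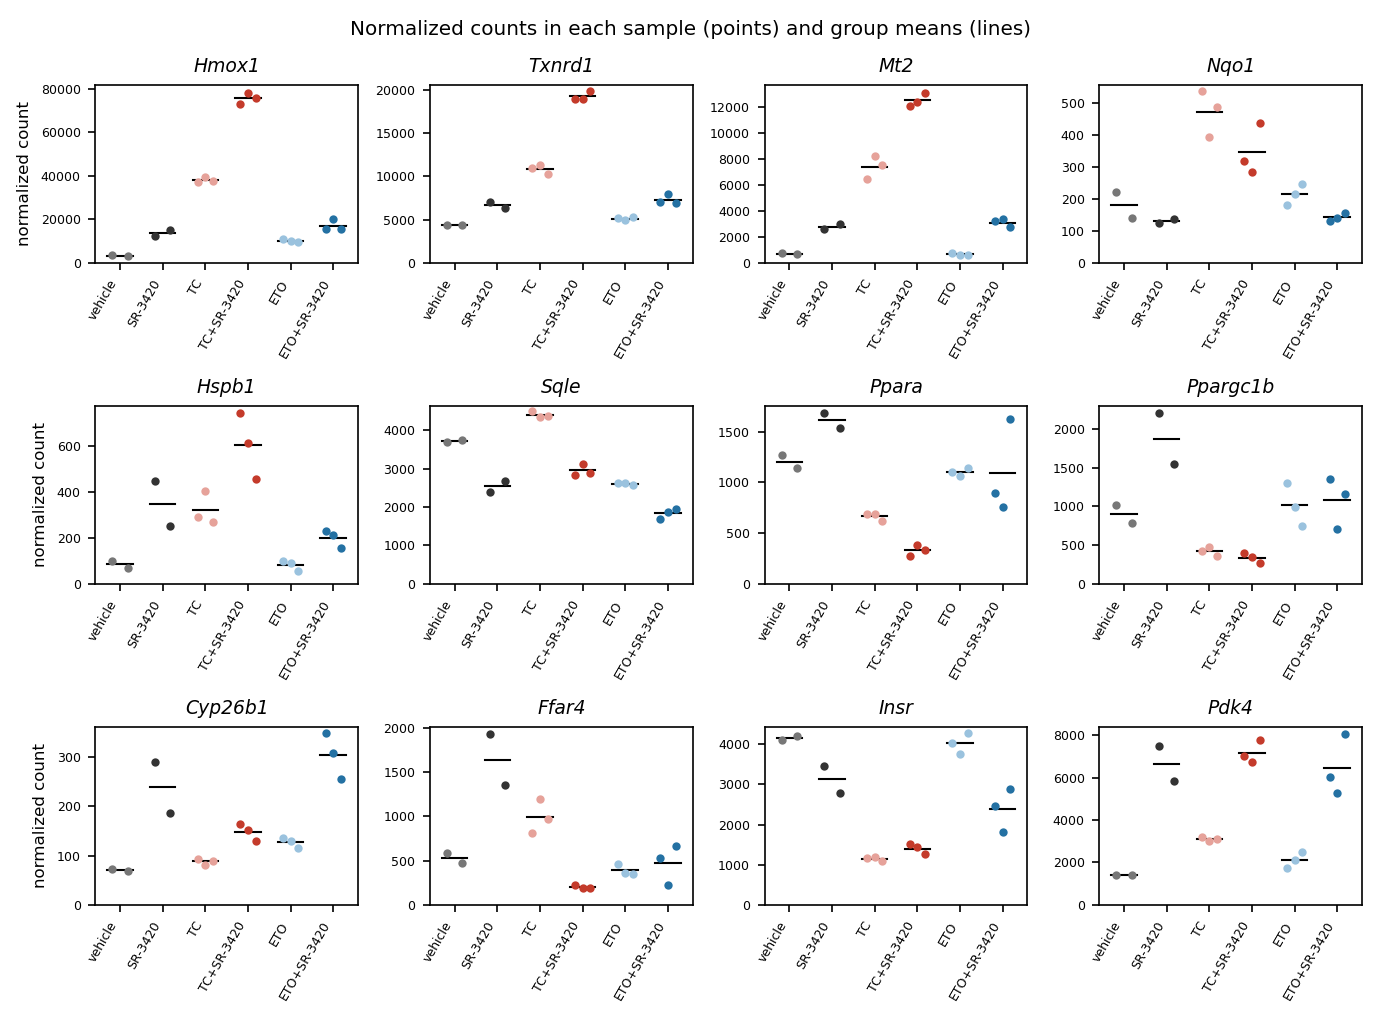
Normalized count (vertical, linear from 0) of 12 genes in each of the 16 samples, grouped by treatment; points are samples and lines are group means. Hmox1, Txnrd1 and Mt2 are highest in the 3 TC+SR-3420 samples, while Ppara and Ffar4 are lowest there.

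Growth-related machinery lists had small positive medians and no called member. EdgeR called 0 of 20 aminoacyl-tRNA synthetases (median log2FC 0.22), 0 of 50 ribosome biogenesis genes (0.22), 0 of 77 cytosolic ribosomal proteins (0.25, or 0.15 with trends in GC content and length removed) and 0 of 38 proteasome subunits (0.20). At an unadjusted p under 0.05, 8, 7, 4 and 5 of them were higher and 0 lower, and DESeq2 called 2, 2, 1 and 0 higher and 0 lower. Over all 12786 genes tested, 3.39% were higher and 3.83% lower at that unadjusted p, and DESeq2 called 107 higher and 102 lower. In ribosome biogenesis 49 of 50 members had a log2FC above 0, and in the tRNA synthetases 19 of 20. Subunits of the respiratory chain had a median of 0.029 over 80 genes, which turned below 0 without TC+SR-3420 replicate 2 or ETO+SR-3420 replicate 2 and with trends in GC content and length removed, with 0 called by edgeR, 0 at an unadjusted p under 0.05 and 0 by DESeq2. Among 29 immediate early factors edgeR called 0 (7 higher and 2 lower at an unadjusted p under 0.05, 1 and 0 by DESeq2), with a median of 0.28. Among 24 clock genes it called 0 (2 and 2, 0 and 1 by DESeq2), with a median of -0.064 (from -0.11 without ETO+SR-3420 replicate 1 to 0.024 without ETO+SR-3420 replicate 3). Of 40 autophagy and lysosome genes Sqstm1 was the 1 called higher, and 0 were called without TC+SR-3420 replicate 1, 2 or 3, ETO+SR-3420 replicate 1 or ETO+SR-3420 replicate 3. Their median of 0.0034 turned below 0 with no filter on low counts and ran from -0.0090 without ETO+SR-3420 replicate 2 to 0.061 without ETO+SR-3420 replicate 1.

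Among the remaining lists edgeR called no gene either. For each of them the median log2FC is given with its lowest and highest value when 1 of the 6 samples was left out, then the genes higher and lower. The shares over all genes tested, 3.39% higher and 3.83% lower at an unadjusted p under 0.05, apply here too. Fatty acid synthesis (22 tested) had a median of 0.071, from -0.063 without ETO+SR-3420 replicate 2 to 0.25 without ETO+SR-3420 replicate 1, with 2 and 0 genes at an unadjusted p under 0.05 and 1 and 0 called by DESeq2. LXR targets (16 tested) had a median of -0.0091, from -0.13 without ETO+SR-3420 replicate 2 to 0.14 without ETO+SR-3420 replicate 1, with 1 and 2 genes at an unadjusted p under 0.05 and 1 and 0 called by DESeq2. Pyruvate dehydrogenase kinases and phosphatases (9 tested) had a median of -0.039, from -0.12 without ETO+SR-3420 replicate 1 to 0.18 without ETO+SR-3420 replicate 3, with 1 and 0 genes at an unadjusted p under 0.05 and 0 and 0 called by DESeq2. Acyl-CoA thioesterases (10 tested) had a median of 0.058, from -0.017 without TC+SR-3420 replicate 1 to 0.049 without TC+SR-3420 replicate 2, and below 0 with trends in GC content and length removed, with 1 and 0 genes at an unadjusted p under 0.05 and 0 and 0 called by DESeq2. Growth factor and MAP kinase feedback genes (25 tested) had a median of 0.21, from 0.11 without TC+SR-3420 replicate 1 to 0.27 without ETO+SR-3420 replicate 1, with 3 and 1 genes at an unadjusted p under 0.05 and 0 and 0 called by DESeq2. Inflammatory genes (26 tested) had a median of 0.15, from 0.084 without ETO+SR-3420 replicate 3 to 0.19 without ETO+SR-3420 replicate 1, with 3 and 0 genes at an unadjusted p under 0.05 and 2 and 0 called by DESeq2.

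Adrenergic and cAMP genes (23 tested) had a median of 0.011, from -0.047 without TC+SR-3420 replicate 2 to 0.13 without ETO+SR-3420 replicate 1, and below 0 with trends in GC content and length removed or other filters on low counts, with 2 and 4 genes at an unadjusted p under 0.05 and 1 and 1 called by DESeq2. The p53 and apoptosis genes (29 tested) had a median of 0.12, from 0.088 without ETO+SR-3420 replicate 1 to 0.17 without ETO+SR-3420 replicate 3, with 5 and 1 genes at an unadjusted p under 0.05 and 3 and 0 called by DESeq2. Cell cycle genes (40 tested) had a median of 0.070, from 0.020 without TC+SR-3420 replicate 3 to 0.14 without TC+SR-3420 replicate 1, with 1 and 0 genes at an unadjusted p under 0.05 and 0 and 0 called by DESeq2. Collagen chains (34 tested) had a median of 0.10, from -0.0018 without ETO+SR-3420 replicate 3 to 0.20 without ETO+SR-3420 replicate 1, with 1 and 0 genes at an unadjusted p under 0.05 and 0 and 0 called by DESeq2. Mitochondrial chaperones, proteases and stress genes (26 tested) had a median of -0.036, from -0.069 without ETO+SR-3420 replicate 2 to 0.017 without ETO+SR-3420 replicate 1, with 0 and 0 genes at an unadjusted p under 0.05 and 0 and 0 called by DESeq2. Mitochondrial ribosomal proteins (77 tested) had a median of 0.051, from 0.035 without TC+SR-3420 replicate 3 to 0.066 without ETO+SR-3420 replicate 3, and below 0 with trends in GC content and length removed, with 0 and 0 genes at an unadjusted p under 0.05 and 0 and 0 called by DESeq2. Mitochondrial carriers (44 tested) had a median of -0.0010, from -0.050 without ETO+SR-3420 replicate 2 to 0.054 without ETO+SR-3420 replicate 1, and above 0 with DESeq2's size factors, in DESeq2 and without TC+SR-3420 replicate 3, ETO+SR-3420 replicate 1 or ETO+SR-3420 replicate 3, with 2 and 1 genes at an unadjusted p under 0.05 and 0 and 0 called by DESeq2.

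The longer list of fibroblast markers (18 tested) had a median of 0.19, from 0.035 without ETO+SR-3420 replicate 3 to 0.33 without ETO+SR-3420 replicate 1, with 0 and 0 genes at an unadjusted p under 0.05 and 0 and 0 called by DESeq2. Macrophage markers (4 tested) had a median of 0.52, from 0.38 without ETO+SR-3420 replicate 2 to 0.81 without ETO+SR-3420 replicate 1, with 1 and 0 genes at an unadjusted p under 0.05 and 0 and 0 called by DESeq2. Endothelial markers (4 tested) had a median of 0.23, from -0.0049 without ETO+SR-3420 replicate 3 to 0.49 without ETO+SR-3420 replicate 1, with 0 and 0 genes at an unadjusted p under 0.05 and 0 and 0 called by DESeq2. Muscle markers (4 tested) had a median of 0.48, from 0.20 without ETO+SR-3420 replicate 2 to 0.88 without ETO+SR-3420 replicate 1, with 0 and 0 genes at an unadjusted p under 0.05 and 0 and 0 called by DESeq2. The part of differences in cell composition in these medians was not tested.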

How the data were processed

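RNA-seq of the 16 samples was read from 1 table of whole-number counts per gene (20295 genes), which the authors deposited. Per the study's methods and the submitters' processing notes, reads were mapped to mm9 with STAR 2.4.2a. They were counted with HOMER (no version is stated for the RNA-seq) and iRNA-seq, with 1 read kept per position and length. The strand setting is not given in the sources used here. Groups were taken from the labels. EdgeR 4.0.16 (R 4.3.3, limma 3.58.1) was run with TMM normalization, filterByExpr, which left 12786 genes, and its quasi-likelihood test in 1 model of 6 groups over 16 samples, p-values being adjusted by the method of Benjamini and Hochberg for all 12786 genes, with a threshold of 0.05. Normalized counts are counts divided by DESeq2 1.42.0 size factors, and log2FC is TC+SR-3420 minus ETO+SR-3420. Figures used Python 3.11.15, numpy 2.4.6 and matplotlib 3.10.9.

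Total counts per sample ran from 9452861 to 25670624 over the 16 samples, which sets the precision for genes with few counts. On simulated counts with known changes, the code returned the directions it was given and 2-fold changes were recovered only in part, so genes that were not called may still differ. In the same counts DESeq2 recovered more of the changes than edgeR, but a larger share of its calls was false, above the share its threshold allows, so its higher numbers of calls are to be read with that in mind. Samples of a group were compared with each other, and all pairs differed by more than sampling noise.

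Genes were named by 4 rules: per direction the 12 called genes that differed most, if their mean normalized count reached 50 and the samples of the groups stood apart; the key members of each gene list that were tested; the 3 called members with the smallest p in each list; and Pdk4, Plin2, Ffar4 and Cyp26b1, which the study shows. Members and lists were chosen with earlier results of these data known. The alternatives were DESeq2's size factors, DESeq2's Wald test, no filter on low counts, a filter asking for 10 counts in all samples, a fit on the compared groups only, the replicate number as a block, each sample left out, a test against a log2FC of 1, and genes without overlap with another gene. Removal of trends in GC content and length (splines with 5 degrees of freedom; GC content from GENCODE vM1 for 11959 of the genes tested), a block within the 6 samples, and leaving out samples of the other groups were added after seeing the data.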

Additional observations from a re-analysis of the deposited data

Results flagged for a closer look

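The log2FC of triacsin C over etomoxir depended on SR-3420 by the interaction test in edgeR. In 194 genes this signed value was higher with SR-3420 than without, and in 99 it was lower. Higher here does not mean a larger difference. Over the 293 genes the median absolute log2FC was 1.27 without SR-3420 and 0.24 with it. Among the genes described above, the interaction (log2FC with SR-3420 minus log2FC without) was below 0 for Ffar4 (-2.62), Mt2 (-1.52), Ccno (-1.32), Atf3 (-1.15) and Angptl4 (-0.70). It was above 0 for Prkce (1.80), Ncoa1 (1.20), Pdzd2 (1.14), Slc22a23 (1.101), Insr (1.01) and Fgfr2 (0.76), all of which were lower with triacsin C in both conditions. The interactions of Ffar4, Mt2, Atf3, Prkce and Ncoa1 were called without any 1 of the 12 samples with an inhibitor (edgeR adjusted p at most 0.0262). Pdzd2 was lost without TC+SR-3420 replicate 1, TC replicate 2 or TC replicate 3 (edgeR adjusted p over the 12 left-out fits 0.00856 to 0.0581), and Insr without TC+SR-3420 replicate 1 or TC replicate 1, 2 or 3 (0.0106 to 0.0701). Ccno was called only without TC+SR-3420 replicate 1, ETO+SR-3420 replicate 3 or TC replicate 1 (0.0391 to 0.107), Angptl4 only without ETO+SR-3420 replicate 2 or 3 (0.0472 to 0.0922), Fgfr2 only without TC+SR-3420 replicate 2 or ETO+SR-3420 replicate 3 (0.0270 to 0.130), and Slc22a23 only without ETO replicate 3 (0.0469 to 0.138). The cause of these interactions was not tested.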

How the results depend on the processing

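The 38 called genes kept their sign in every alternative in which they were tested, while the number called depended on the test and the samples. The alternatives reuse the samples that gave the calls, so the kept signs are no separate evidence. DESeq2's size factors in edgeR (15 higher, 18 lower), no filter (14 and 18), at least 10 counts in every sample (15 and 25) and the removal of overlapping genes (14 and 22) moved these counts by less than 1.5 times. DESeq2's Wald test called 107 higher and 102 lower (18 and 30 at least 2-fold), 36 and 5 lipolysis-activated genes, 171 genes shared with TC against ETO and 656 interactions. A fit on only the compared groups called 2 and 0 (2 and 0 at least 2-fold; by DESeq2 in the 6-group model 107 and 102), 2 and 0 lipolysis-activated genes and 2 shared genes. A test against a log2FC of 1 called 2 higher and 0 lower. With trends in GC content and length removed, the counts were 114 and 123 (20 and 29), 40 and 3, 179 and 823. The cause of these shifts was not tested.

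With 1 sample left out, the counts ran from 3 to 21 higher and 0 to 62 lower (3 to 10 and 0 to 30 at least 2-fold), 2 to 10 and 0 to 4 lipolysis-activated genes, 3 to 66 shared genes and 145 to 262 interactions. Hmox1, Mt2 and Txnrd1 were called in every one of the 6 fits without a sample of the comparison. The log2FC of Angptl4, which was not called, ran from -0.038 without ETO+SR-3420 replicate 2 to 0.034, turning to 0.00052 without TC+SR-3420 replicate 1 and 0.034 without ETO+SR-3420 replicate 1. Over 56 named genes and 13 alternatives each, 499 of 728 values kept their side of the threshold and their sign, 202 lost the call, 25 gained it and 2 turned.

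With the replicate number as a block the counts were 117 and 148 (19 and 32), 55 and 4, 230 and 1055, and a block within only the 6 samples gave 324 and 451 (26 and 45). The block fit also called Ppargc1a, Acsl1, Ffar4, Atf4, Hspa1a, Hspa1b, Dnajb1 and Hsph1. The numbers were not taken as pairing: deviations of samples of the same number correlated across genes at 0.72, -0.076 and 0.72, and TC+SR-3420 replicate 2 correlated best with ETO+SR-3420 replicate 1 (0.39). A gene that did not pass is not shown to be equal.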
